A study of Mus musculus with 96 samples.

Results

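The 9 genes described here encode the core of major histocompatibility complex (MHC) class I antigen presentation in the mouse: the heavy chains H2-K1 and H2-D1, the light chain B2m, the peptide transporter subunits Tap1 and Tap2, the loading chaperone Tapbp, the immunoproteasome subunits Psmb8 and Psmb9, and the transactivator Nlrc5. They were chosen by gene symbol with results of these tables already known, so every value below is a description of the tables and supports no test over the 9 genes. Their symbols stood in 14 of the 40336 rows of 14 tables. Of the 9 genes, 6 had at least 1 row, and B2m, Tap1 and Nlrc5 had 0 rows.

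All animals were C57Bl/6 mice, and the groups were irradiated on a high fat diet (Irr HFD), irradiated on chow (Irr Chow), unirradiated on a high fat diet (Ctrl HFD) and unirradiated on chow (Ctrl Chow). Satellite cells, the muscle stem cells, were profiled by RNA sequencing, by sequencing of DNA captured through a methyl-binding domain (MBD), and by reduced representation bisulfite sequencing (RRBS), with 6 samples in each group of each assay. The stromal vascular fraction of fat, a mixture of cells other than adipocytes, was profiled by RRBS alone, in 7 Irr HFD, 4 Irr Chow, 7 Ctrl HFD and 6 Ctrl Chow samples. The sources used here do not give sex, age, radiation dose or the interval after irradiation, nor is it stated which samples came from the same animal, so the p-values measure only the spread between these samples.

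Nearly all nucleated cells display peptides on MHC class I molecules, and this is how cytotoxic T cells find infected or altered cells. Proteasomes cut cytosolic proteins, and under interferon the subunits Psmb8 and Psmb9 replace constitutive ones to form the immunoproteasome, which changes the peptides that are made. The Tap1 and Tap2 heterodimer pumps peptides into the endoplasmic reticulum, Tapbp (tapasin) bridges the transporter to empty heavy chains and favours tightly binding peptides, and heavy chains paired with B2m then travel to the cell surface. Nlrc5 is a transcriptional coactivator of class I genes. Resting muscle is known for low class I levels, which interferon raises.

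Of the 9 genes, 7 lie in the mouse MHC on chromosome 17, B2m lies on chromosome 2 and Nlrc5 on chromosome 8 (RefSeq genes). On chromosome 17 the order by start coordinate is Tapbp, H2-K1, Psmb9, Tap1, Psmb8, Tap2 and H2-D1. Psmb9 and Tap1 are transcribed away from each other, with 225 bases between their starts. Promoter sequences from RefSeq (GRCm38.p6, the assembly of mm10) matched 7 of the 9 genes, and Tap2 and Nlrc5 were not in that table. The 250 bases before the start are printed for H2-D1 and Psmb9, because MBD regions of the results cover these windows, and for H2-K1, the other heavy chain with methylation data, as a comparison. For H2-K1 the promoter table uses a start inside the RefSeq gene span, which reaches 34000619, so its window precedes that start but lies within the span. The sequences read from 5′ to 3′ on the strand of the gene, with CpG dinucleotides, the sites of DNA methylation, in capitals.

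H2-D1: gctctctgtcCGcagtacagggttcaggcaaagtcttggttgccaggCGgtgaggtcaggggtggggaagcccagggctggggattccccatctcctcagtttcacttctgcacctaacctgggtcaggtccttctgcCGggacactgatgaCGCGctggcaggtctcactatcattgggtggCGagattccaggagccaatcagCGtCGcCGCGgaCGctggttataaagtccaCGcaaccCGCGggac
H2-K1: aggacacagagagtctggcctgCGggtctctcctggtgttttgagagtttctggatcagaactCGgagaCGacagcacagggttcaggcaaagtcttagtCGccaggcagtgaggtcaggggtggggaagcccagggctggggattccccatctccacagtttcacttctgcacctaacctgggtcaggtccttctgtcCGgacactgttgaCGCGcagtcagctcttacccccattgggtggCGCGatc
Psmb9: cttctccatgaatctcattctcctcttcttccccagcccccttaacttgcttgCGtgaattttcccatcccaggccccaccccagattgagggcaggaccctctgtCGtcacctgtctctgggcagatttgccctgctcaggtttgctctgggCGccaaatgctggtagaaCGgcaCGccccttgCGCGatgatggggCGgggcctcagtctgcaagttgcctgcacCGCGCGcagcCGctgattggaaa

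The H2-D1 window spans chr17:35262844-35263093 on the plus strand, the H2-K1 window chr17:34000348-34000597 on the minus strand and the Psmb9 window chr17:34187331-34187580 on the minus strand. H2-D1 held 14 CpG dinucleotides, H2-K1 held 9 and Psmb9 held 12, against a median of 6 over the same window of 32544 promoters (quartiles 2 and 16). The other 4 windows held 14 (Tap1), 10 (Tapbp), 10 (Psmb8) and 8 (B2m). The Psmb9 window contains the start of Tap1, so the printed bases serve as upstream sequence of both genes. H2-K1 and H2-D1 are paralogs, and their windows aligned over 177 columns with 161 identical (91.0%), shifted by 60 bases. At positions shifted by the same 60 bases both held GGGATTCCC, a core of the NF-kB site, which 0.301% of the 32544 windows hold on either strand. They also shared TTTCNNTTC, a core of the interferon response element found in 6.35% of windows, and TGACGC, a short core resembling a cyclic AMP response element found in 6.15%. The motif TTCNNNGAA, the gamma-activated site, was found in Psmb8 alone among the 7 windows searched on both strands, and in 7.04% of all windows. These matches describe letters, not sites in use.

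In RNA, Tap2 and Tapbp moved in opposite directions. Over both diets, irradiated satellite cells had a lower level of Tap2 and a higher level of Tapbp than control cells in the authors' deposited table, and the other 7 genes were not listed. Across all 12371 genes tested, 6.68% passed an adjusted p of 0.05, and 2 of these 9 genes did, 1 lower and 1 higher. The tables list genes with an adjusted p under 0.1, so H2-K1, H2-D1, B2m, Tap1, Psmb8, Psmb9 and Nlrc5 either missed that threshold or were not tested, and their levels in these cells are not known here. In such bulk RNA, fewer cells of a type and less RNA per cell cannot be told apart. No table gave values of single samples, so group means, standard deviations and depth are not available for any gene.

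Tap2 (chr17:34203527-34216321, mm10) is the subunit that forms a functional transporter only with Tap1. Its mean log2 fold change over both diets, irradiated over control, was -0.57 with an approximate standard error of 0.13, from the sum in the authors' deposited table divided by 2. This equals 0.676 times the control level, at an edgeR adjusted p of 0.00176, and Tap2 ranked 118 by p among the 1695 genes listed. On the high fat diet its log2 fold change was -0.45 ± 0.19 (approximate SE), obtained by subtracting chow from the sum in the authors' deposited tables. On chow it was -0.68 ± 0.19 (approximate SE; edgeR adjusted p = 0.0323) in the authors' deposited table, rank 103 of 322 listed genes. The value of Tap2 was below 0 on each diet, and the high fat diet effect minus the chow effect was 0.23 ± 0.26, with a 95% interval from -0.29 to 0.74 that spans 0. The average abundance of Tap2 was 3.57 on the log2 CPM scale in the authors' deposited table.

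Tapbp (chr17:33919332-33929288), the chaperone that holds class I heavy chains at the transporter, moved the other way. Its mean log2 fold change over both diets was 0.42 ± 0.12 (approximate SE), or 1.34 times the control level, with an edgeR adjusted p of 0.0148 and rank 336 of 1695 in the authors' deposited table. On the high fat diet the value by subtraction was 0.32 ± 0.17 from the authors' deposited tables. On chow it was 0.53 ± 0.17 with an edgeR adjusted p of 0.0850 in the authors' deposited table, which misses 0.05, at rank 281 of 322. The high fat diet effect minus the chow effect was -0.20 ± 0.24, with a 95% interval from -0.67 to 0.27. The average abundance of Tapbp was 4.23 on the log2 CPM scale in the authors' deposited table. In RefSeq a long non-coding gene, Gm19412, overlaps Tapbp over 1019 bases. Whether counting used strand is not stated, so their reads may not be told apart. The same limit holds for unlisted B2m, which Patl2 overlaps over 5396 bases. It also holds for unlisted Nlrc5, which the long non-coding gene Gm51584 overlaps over 14995 bases and other genes over fewer.

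**Figure D1:**
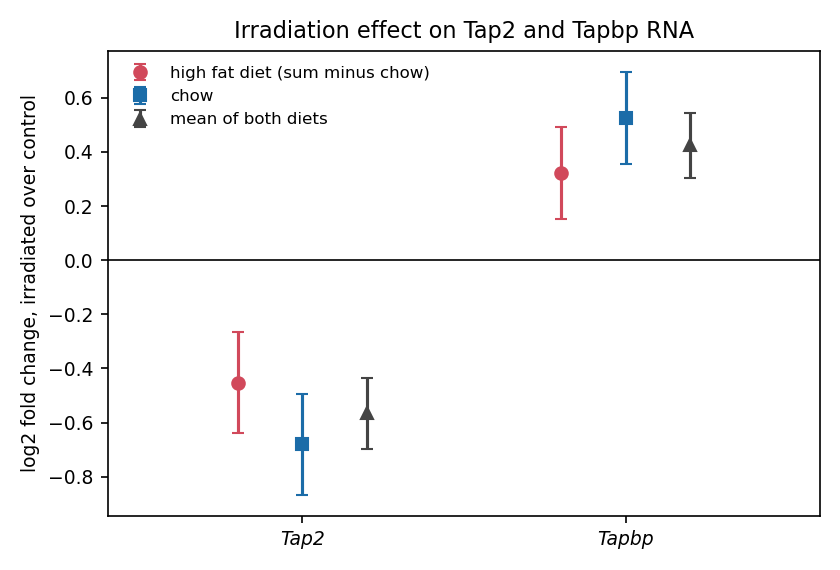
The plot shows the log2 fold change of Tap2 and Tapbp RNA in irradiated over control satellite cells on the high fat diet, on chow and as the mean of both, with bars of 1 approximate standard error. All 3 values of Tap2 lie below 0, from -0.68 to -0.45, and all 3 of Tapbp lie above it, from 0.32 to 0.53.

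The size of these changes was ordinary among genes that passed. The 827 genes at an adjusted p under 0.05 over both diets had a median absolute value of 1.08 on the deposited sum scale, against -1.13 for Tap2 and 0.85 for Tapbp in the authors' deposited table. When each diet was tested alone, 1.25% of genes passed on chow, among them Tap2 of the 9, and 0.0647% passed on the high fat diet, with 0 of the 9. The absence of Tap2 and Tapbp from the high fat diet list does not separate the diets, because the intervals of the diet differences span 0 for both genes. Comparing high fat diet with chow within irradiated mice, 0.00808% of genes passed, a single gene that was not of the 9.

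Markers of other cells that a satellite cell preparation could hold are given beside these values. Over both diets 6.68% of all tested genes passed 0.05 in either direction, and how many genes of each marker list were tested is not known. The leukocyte list held 23 symbols, among them Adgre1 and Emr1, an older symbol of the same gene. Of these, 0 were higher and 2 were lower over both diets, the macrophage genes Itgam at -0.79 and Mrc1 at -0.59 mean log2 fold change in the authors' deposited table. Both were scarce, at average abundances of 0.85 and 1.63 log2 CPM. Endothelial markers gave 0 of 10 called over both diets and 2 of 10 lower on chow, where 1.25% of all genes passed. These were Cdh5 at -3.03 ± 0.75 and Pecam1 at -2.25 ± 0.66 log2 fold change (approximate SE), both scarce at 0.33 and 0.60 log2 CPM, in the authors' deposited table for chow. Fibroblast markers gave 3 of 9 lower over both diets, namely Thy1 at -1.37, Col1a2 at -1.18 and Dcn at -1.29 mean log2 fold change in the authors' deposited table, and Col1a1 was listed at -1.29 without passing. For Thy1 the log2 fold change was -0.53 on the high fat diet and -2.20 on chow in the authors' deposited tables, and the difference of 1.67 had a 95% interval from 0.57 to 2.76. Thy1 was scarce, at 0.68 log2 CPM. The intervals spanned 0 for Col1a1 (difference 1.56, from -0.20 to 3.31) and Col1a2 (0.64, from -0.39 to 1.66). These intervals are not adjusted for the number of genes. On chow 2 of the 9 fibroblast markers were lower, Thy1 and Col1a2 (-1.50 in the authors' deposited table). Among 14 satellite cell and myoblast markers, 4 were lower and 0 higher over both diets: Myog at -0.58, Cdh15 at -0.46, Ncam1 at -0.41 and Chrna1 at -0.40 mean log2 fold change in the authors' deposited table. Of the 7 listed in all, 6 were lower and 1, Pax3, stood the other way at 0.53 with an edgeR adjusted p of 0.0619 in the authors' deposited table. Chrna1 stood at 11.1, Myog at 10.7 and Cdh15 at 9.10 on the log2 CPM scale, so these transcripts were abundant, while Pax3 stood at 1.88. Pax7, the defining satellite cell marker, was not listed and its level is not known here. The list mixes markers of satellite cells and of myoblasts, and which of these cells its values reflect was not tested. These marker shifts moved with the same contrast as Tap2 and Tapbp, and their part in those values was not tested.

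Among 20 other genes that supply or load class I peptides, 1 was higher and 1 was lower over both diets. The threshold was an adjusted p under 0.05, which 6.68% of all tested genes passed. How many of the 20 were tested is not known, so the shares do not have like denominators. Erap1, the aminopeptidase that trims peptides inside the endoplasmic reticulum, rose by a mean log2 fold change of 0.66 ± 0.15 (approximate SE; edgeR adjusted p = 0.00154) in the authors' deposited table. Thop1, a cytosolic peptidase that destroys peptides before transport, had a mean log2 fold change of -0.67 ± 0.14 (approximate SE) in the authors' deposited table, with an edgeR adjusted p of 0.000589. Another 3 genes were listed without passing: the tapasin relative Tapbpl at -0.46, the chaperone calreticulin (Calr) at -0.38 and the chaperone Hspa5 at -0.30 mean log2 fold change in the authors' deposited table.

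Among 25 other class I heavy chains, 1 was higher and 1 lower over both diets, where 6.68% of all tested genes passed. Neither of these presents peptides. Cd1d1, which presents lipids to natural killer T cells, rose by 0.45 ± 0.15 mean log2 fold change (approximate SE) in the authors' deposited table, with an edgeR adjusted p of 0.0465. Fcgrt, the heavy chain of the neonatal Fc receptor that recycles immunoglobulin G, stood at -0.36 ± 0.10 (approximate SE; edgeR adjusted p = 0.0129) in the authors' deposited table. Mr1, which presents vitamin B metabolites, was listed at -0.39 in the authors' deposited table, with an adjusted p of 0.0953. Class I heavy chains of the H2 family are related in sequence and may share reads, which was not measured. The sources used here do not say how reads matching several genes were counted.

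Psmb8 and Psmb9 replace catalytic subunits of the constitutive proteasome. Over both diets, where 6.68% of all tested genes passed, 1 of 37 constitutive proteasome genes was lower and 0 were higher. That gene was Psmb5, the constitutive counterpart of Psmb8, at -0.35 ± 0.09 mean log2 fold change (approximate SE; edgeR adjusted p = 0.00619) in the authors' deposited table. Psmb6, the counterpart of Psmb9, was listed at -0.24 and the ATPase subunit Psmc3 at -0.28 without passing 0.05 in the authors' deposited table. None of 25 transcription factors and cofactors of class I genes passed, and of these Irf3 alone was listed by the authors' deposited table, at -0.21 with an adjusted p of 0.0577. All 11 genes of class II presentation were unlisted.

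Of 43 interferon response genes, 2 were higher and 2 were lower over both diets at an adjusted p under 0.05. Of all tested genes 6.68% passed, but how many of the 43 were tested is not known. Ifitm3, a membrane protein that restricts virus entry, rose by 0.53 mean log2 fold change and the cytokine receptor kinase Jak2 by 0.46 in the authors' deposited table. The guanylate-binding protein gene Gbp4 stood at -0.56 and Ifi27 at -0.38 mean log2 fold change in the authors' deposited table. The RNA sensor Ifih1 at 0.64, the GTPase Irgm1 at 0.42 and the receptor subunit Ifnar1 at 0.24 were listed but missed 0.05 in the authors' deposited table.

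**Figure D2:**
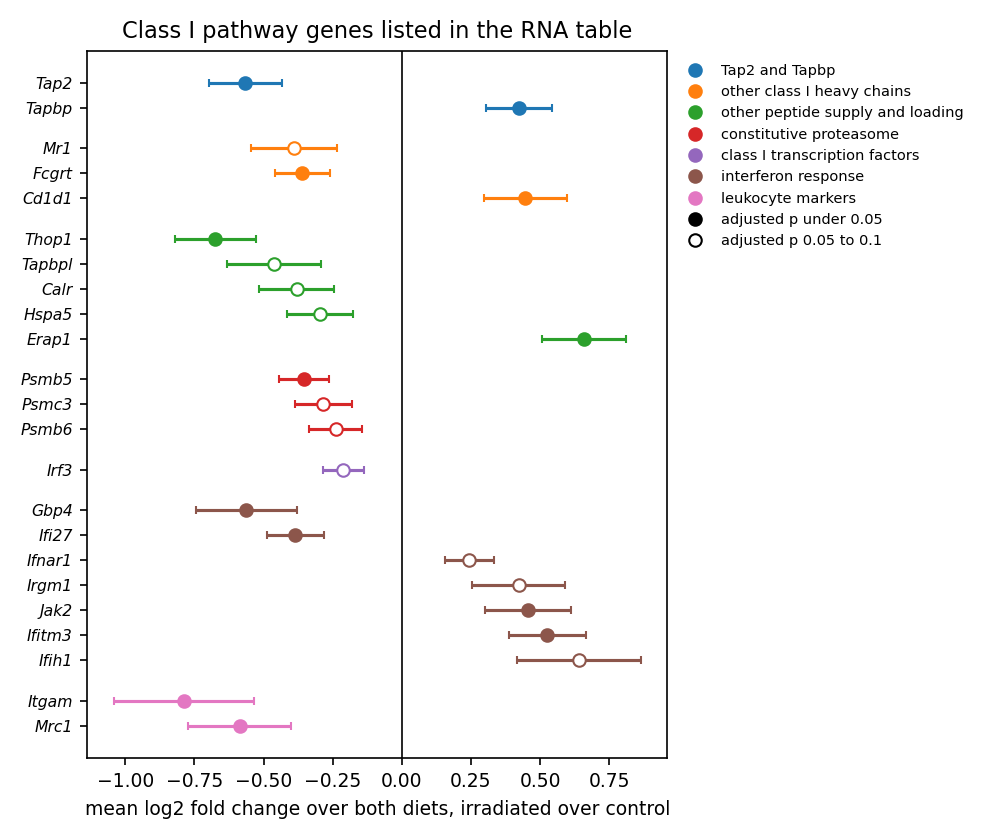
The plot shows the mean log2 fold change over both diets, irradiated over control, for every listed gene of 7 gene lists, with bars of 1 approximate standard error; filled points have an adjusted p under 0.05 and open points 0.05 to 0.1. Tap2 at -0.57 lies near Thop1 at -0.67, and Tapbp at 0.42 near Cd1d1 at 0.45 and below Erap1 at 0.66.

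MBD capture of satellite cell DNA listed regions of 3 other genes of the 9: H2-D1, Psmb9 and Psmb8. All 4 regions had a log2 fold change below 0. The sides of this contrast are named in no header or label, so a negative value is lower only as coded, with no treatment attached, and the tables give unadjusted p-values.

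H2-D1 was listed with a pair of promoter intervals around its start. The interval chr17:35262123-35264122 had a log2 fold change of -0.99 (0.505 times, edgeR p = 0.00013) in the authors' deposited table. For chr17:35262094-35264093 it was -1.02 (edgeR p = 0.000306) in the authors' deposited table. These intervals belong to different transcripts and share 1971 of their 2000 bases, so they are nearly a single measurement. Among the 373 listed promoters, 75.9% were lower as coded, and the H2-D1 intervals ranked 29 and 27 from the lowest fold change. The direction of listed promoters followed abundance: within 0.5 log2 CPM of the first interval 61 of 68 were lower (89.7%), and of the second 74 of 79 (93.7%). The sign of the H2-D1 values was thus that of most promoters with like abundance, and their size stood towards the low end of the list. Captured reads may also match other related H2 genes, and how such reads were placed is not stated.

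For Psmb9 a CpG shore, the flank of a CpG island, was listed at chr17:34185674-34187673 with a log2 fold change of -0.74 (0.597 times, edgeR p = 0.000641) in the authors' deposited table. This interval covers the whole printed Psmb9 window and the Tap1 start at 34187556, although the authors' deposited table annotates it to Psmb9 only. It ranked 186 by p of 190 listed shores, close to the end of the list. Of the listed shores 65.8% were lower as coded, and of the 51 with abundance within 0.5 log2 CPM, 50 were lower (98.0%).

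The exons of Psmb8 were listed from its start over 1223 bases, chr17:34198195-34199417, with a log2 fold change of -0.36 (0.780 times, edgeR p = 0.00717) in the authors' deposited table. It ranked 2162 by p of 2455 listed exon regions. Here 33.8% of listed regions were lower as coded, and 173 of 395 (43.8%) at like abundance, so Psmb8 stood on the less common side of its list. No region of the 9 genes was among the 84 listed CpG islands. None of the genes with an MBD region was listed in RNA, and neither Tap2 nor Tapbp had an MBD region. Over both diets 1695 of 12371 tested genes were listed in RNA, so most genes were unlisted there. The share of all genes listed by both assays was not computed, so nothing is read from this lack of overlap.

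**Figure D3:**
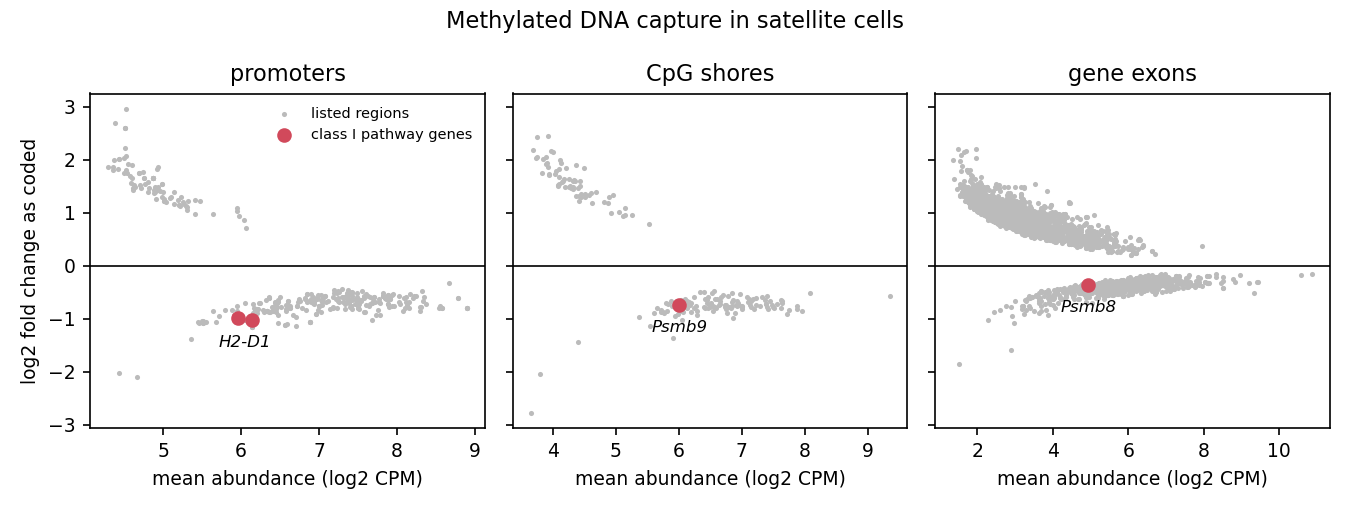
The panels plot the log2 fold change as coded against mean abundance (log2 CPM) for the listed promoters, CpG shores and gene exons, with H2-D1, Psmb9 and Psmb8 as large red points. In the promoter and shore panels regions of low abundance lie mostly above 0 and abundant regions below it, and H2-D1 (-1.02 and -0.99) and Psmb9 (-0.74) lie within the lower band.

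RRBS reads the methylation of single cytosines in MspI fragments, and it listed regions of H2-K1 and Tapbp. The tables give a median difference in methylation, group 1 minus group 2, for groups that are not named. Their median p is not read here as spread between animals. The labels give 1 set of samples per tissue for the radiation and the diet comparison, and they may share their group 1, so values of a region in both are set side by side and not counted as separate evidence.

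The H2-K1 region with the large difference was chr17:33999669-33999722, 54 bases that lie 611 bases past the start by the authors' annotation. In satellite cells its methylation was 45.2 percentage points higher in group 1 than in group 2 of the radiation comparison in the authors' deposited table. For the diet comparison the same region was 45.1 points higher in group 1 in the authors' deposited table. By absolute difference it ranked 3 of 9827 regions for radiation and 5 of 9617 for diet. At least 45 points were reached by 4 regions in the radiation table and 5 in the diet table. H2-K1 stood apart from the common sizes of difference. Under 5 points lay 45.5% of the regions for radiation and 49.8% for diet, and 30 to 35 points held a further 33.5% and 31.2%. Bisulfite reads of H2-K1 may also match other H2 genes, and how such reads were placed is not stated.

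**Figure D4:**
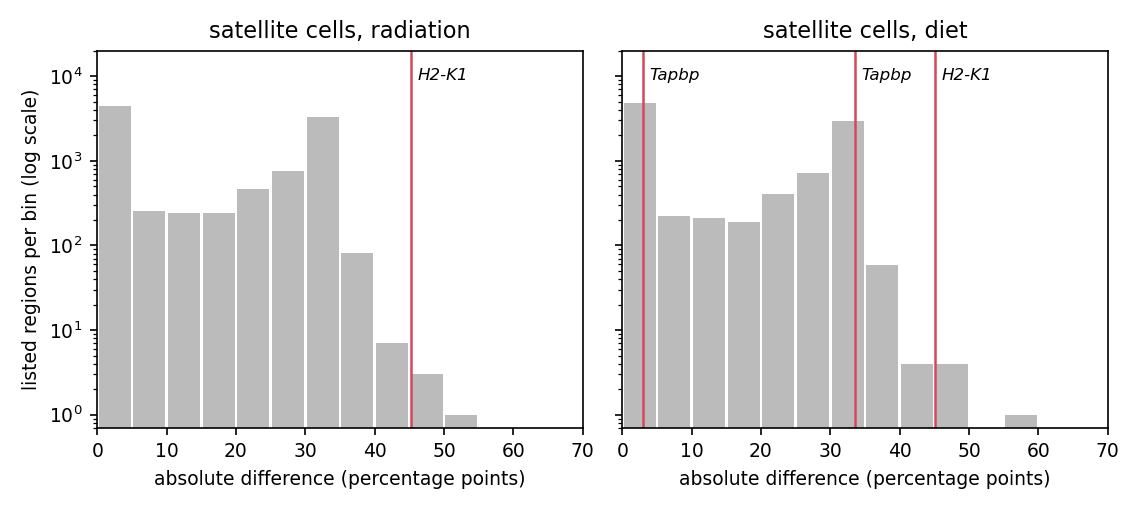
The histograms count listed satellite cell regions by absolute difference between group 1 and group 2 in bins of 5 percentage points, on a log axis, with red lines at H2-K1 and Tapbp. Most regions fall under 5 points or between 30 and 35 points, and H2-K1 at 45.2 and 45.1 points lies in bins of 3 and 4 regions.

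A separate H2-K1 region, chr17:34000048-34000060, was listed in the stromal vascular fraction. It covers 13 bases at 273 past the annotated start, with 325 bases between it and the satellite cell region. Its difference in the diet comparison was -20.2 points, lower in group 1, in the authors' deposited table (rank 2507 of 7997). Both H2-K1 regions lie downstream of the printed window, within the gene. Their signs are opposite, but the regions, the tissues and possibly the sides of the contrast differ.

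Tapbp was the gene of the 9 listed by both RNA and methylation, and the share of all genes listed by both was not computed. At -1106 bases from its start, chr17:33918372-33918421 was 29.9 points higher in group 1 of the stromal vascular fraction diet comparison in the authors' deposited table (rank 1539 of 7997). In satellite cells chr17:33919853-33919898, at 420 bases past the start, had a difference of -33.5 points in the diet comparison in the authors' deposited table (rank 1765 of 9617). This size falls in the common class of 30 to 35 points. A single cytosine at chr17:33920060, at 582 bases past the start, was 2.99 points higher in group 1 of that comparison in the authors' deposited table (rank 5036 of 9617). With 161 bases between them, the satellite cell regions of Tapbp thus differed in sign and in size.

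Over all listed regions, 43.2% were higher in group 1 for diet in the stromal vascular fraction, 48.1% for radiation in satellite cells and 51.9% for diet in satellite cells. Of the 6 rows of H2-K1 and Tapbp, 4 were higher in group 1 and 2 were lower, and 2 of the 4 are the same H2-K1 region in comparisons that share samples. The radiation table of the stromal vascular fraction and both interaction tables held 0 rows of the 9 genes. Tapbp RNA was listed for irradiation, while its methylation regions were listed for diet, and the satellite cell radiation table held 0 regions of it.

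**Figure D5:**
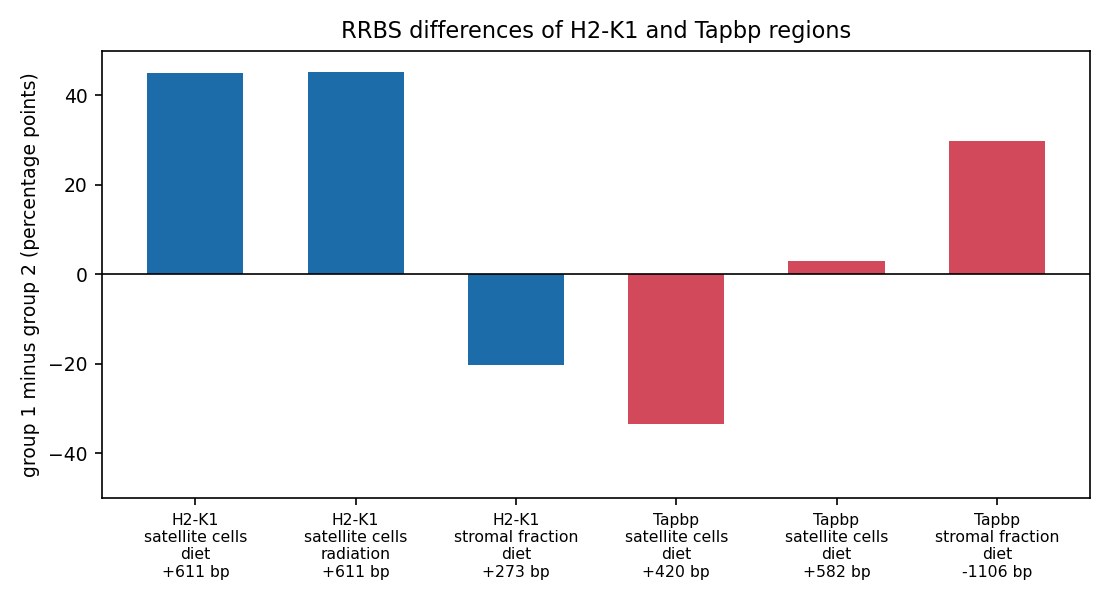
The bars show the methylation difference, group 1 minus group 2, in percentage points for the 6 listed rows of H2-K1 (blue) and Tapbp (red), labelled with tissue, comparison and distance to the annotated start. The satellite cell H2-K1 region reaches 45.1 and 45.2 points, and Tapbp has bars on both sides of 0.

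Of the genes of the peptide supply list named above, Thop1 had a region 45 bases before its start in 4 RRBS tables. In satellite cells its difference was 0.617 points for radiation and -29.3 points for diet in the authors' deposited tables. In the stromal vascular fraction it was 0.280 points for radiation and -20.0 points for diet in the authors' deposited tables. Such sizes were not particular to Thop1. Of the satellite cell diet regions, 727 of 9617 had absolute differences of 25 to 30 points. In the stromal vascular fraction diet comparison 984 of 7997 regions lay at 20 to 25 points. Between the first and last of the 7 MHC genes, chr17:33919478-35267497, the RNA table over both diets listed 4 genes, namely Tap2, Tapbp, the ribosomal protein gene Rps18 at -0.24 and the choline transporter-like gene Slc44a4 at -0.86 mean log2 fold change in the authors' deposited table. Tapbp alone of these 4 was higher after irradiation. Over the whole genome 1695 of 12371 tested genes were listed, and 823 of these were higher. How many genes of the interval were tested is not known, so no share is given for it. Rps18 had an edgeR adjusted p of 0.0986 and so missed 0.05.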

How the data were processed

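Per the submitters' processing notes the build was mm10. For RNA the authors name TopHat2, featureCounts and edgeR after Trim Galore 0.4.0. For MBD the authors name Trimmomatic and Bowtie2, with Picard, then the same counter and edgeR. RRBS used Bismark 0.14.4 on Bowtie2 2.2.6, with Trim Galore 0.4.0 over cutadapt 1.8.3. The sources used here do not give settings or strand handling. All 14 deposited tables hold the authors' comparisons and 0 columns of single samples, so nothing was refitted and depth is unknown. RNA columns are log2 fold changes, log2 CPM and p-values by the authors. MBD columns, which also hold the authors' notes, were treated as a score. The deposited RRBS difference is a score from -1 to 1, printed here in percentage points, and the columns with levels of unnamed groups were not used.

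Rows were matched by symbol, and 0 further rows by Ensembl ID. Adjusted p times rank over p gave 12371 tested genes. The RNA value over both diets equalled chow plus high fat diet for all 13 genes in the 3 irradiation tables (largest deviation 3.11e-15), so it was divided by 2 and the high fat diet effect obtained by subtraction. Approximate SE is the absolute log2 fold change over the square root of the likelihood ratio, with the variance of the high fat diet effect by subtraction. The design allowed for a refit that comparison tables do not permit. All 9 genes were named. Of the other lists, genes passing 0.05 over both diets were named, and for heavy chains, peptide supply, transcription factors, interferon response and leukocyte markers every listed gene. Cdh5, Pecam1, Col1a1, Pax3, Psmb6 and Psmc3 were added after their values were seen. The genes and lists were chosen with earlier results of these data known. The recovery of the tested number and of the sum was tested on simulated data. Analyses used Python 3.11.15, pandas 2.3.3, NumPy 2.4.6 and matplotlib 3.10.9.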

Additional observations from a re-analysis of the deposited data

How the results depend on the processing

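Of 36 alternatives over 14 counts of the 9 genes, 32 left the count within 1.5 times of the value reported. Of these, 15 were counts of 0 that stayed 0, and 13 of the 15 only filtered or merged listed entries and so could not move. The MBD alternative of an unadjusted p under 0.01 could not move any count either. All listed MBD regions already met it, with a largest edgeR p of 0.00877, in gene exons. At an adjusted p under 0.01, the RNA count over both diets was 1 (Tap2) and the count on chow was 0. With all genes the authors listed on chow (adjusted p under 0.1), the count was 2, Tap2 and Tapbp. Requiring an absolute difference of at least 10 points took the satellite cell RRBS diet count from 3 to 2. That change lies at the edge of 1.5 times and is counted among the 32, and it drops the single cytosine of Tapbp. When overlapping MBD promoter intervals were counted once, an alternative chosen after seeing the data, H2-D1 gave 1 interval. No paired analysis was possible because the deposited tables hold no values of single samples. Leaving out each replicate was not run for the same reason. Depth is unknown, so a gene that is not listed may be unchanged, too scarce to test or short of the threshold.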
